A study of Mus musculus with 24 samples.

Results

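The digestive enzymes of the pancreas were followed here as transcripts of 10 genes in RNA from sorted CD8 T cells. The 10 genes, taken by symbol from a list chosen with results of these data in view, were Ctrb1, Cela1, Cela2a, Prss2, Cpa1, Cpb1, Pnlip, Cel, Clps and Rnase1, out of 24421 genes counted. The choice used the levels of these genes across tissue groups and ages, so their levels and their tissue, age and genotype differences are a description, without p-values. For the main edgeR fit of each comparison, the number of the 10 genes called at an adjusted p under 0.05 stands beside the share of all genes called. For fits with libraries left out and some other alternatives that share is not always given. No such number supports anything. The sort kept cells with CD45, CD3 and CD8 on their surface, from pancreas and from blood, of KC mice (a mouse model of pancreatic cancer) and of wild-type (WT) B6 mice, and total RNA was sequenced. The labels give neither the alleles of the KC mice nor the cell type in which these act. There were 12 KC pancreas libraries, 3 each at the ages of 4 and 13 weeks and 2 each at 9, 20 and 30 weeks after birth, and WT pancreas gave 1 library at 9 and 1 at 30 weeks. The 9 KC blood libraries comprised 2 of 4 weeks, 1 of 9 weeks, 3 of 13 weeks, 1 of 20 weeks and 2 of 30 weeks, and WT blood gave 1 library at 30 weeks. The labels name no treatment. A library is called by its title, in which P8 stands for pancreas and B8 for blood.

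Acinar cells make up most of the exocrine pancreas and secrete digestive enzymes, most of them as inactive precursors (zymogens), into the duct system. Proteases cut dietary protein, carboxypeptidases trim the peptides from their carboxyl ends, lipases with their cofactor colipase split fats, and ribonuclease degrades RNA. Enzyme transcripts are among the most abundant messengers of acinar cells and are not part of the programme of a T cell. When pancreas is taken apart into single cells, RNA from acinar cells can be found in other cells' samples. In RNA of a whole sorted sample, fewer cells of a type and less RNA per cell cannot be told apart.

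The libraries held 6352070 to 16716169 reads counted in genes. T cell genes were abundant in every library: the 9 listed genes that the files hold, among them Cd3e, a chain of the T cell receptor complex, and the coreceptor gene Cd8a, summed to 9520 to 21714 CPM (counts per 1000000 counted reads). A further 95 genes, each high in a single library, left traces in others, and these parted the libraries into 2 sets of 12. Such genes were detected in 92.4% of cases within a set, at a median of 0.205% of the source level, and in 47.7% of cases across sets, at a median of 0. These values come from the same genes that formed the sets, and the method always gives 2 sets. They describe the split and are no support for it. No enzyme gene and no gene of any list entered this grouping. The 4-week and 13-week KC pancreas libraries were in set 1, with all 3 WT libraries and 3 KC blood libraries (Sample_42B8, Sample_43B8, Sample_131B8). The KC pancreas libraries of the other ages were in set 2, with 6 KC blood libraries. In KC pancreas every age lies in 1 set only, so that age and set overlap there, and WT is set 1 only. Beside each result stand the values for a single set, or for a fit that holds set as a covariate, where the libraries allowed one.

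The enzyme genes are turned on in acinar cells by the PTF1 complex, which binds an E-box paired at a set distance with a TC-box. The stretches upstream of 4 of the 10 genes are shown, from base -220 to base -21 relative to the gene start, from RefSeq in build GRCm38.p6. Capitals mark the E-boxes CACCTG and CAGCTG, the TC-box TTTCCC and the nuclear receptor motif AAGGTCA on either strand.
Ctrb1 (chr8:111691031-111691230, minus strand): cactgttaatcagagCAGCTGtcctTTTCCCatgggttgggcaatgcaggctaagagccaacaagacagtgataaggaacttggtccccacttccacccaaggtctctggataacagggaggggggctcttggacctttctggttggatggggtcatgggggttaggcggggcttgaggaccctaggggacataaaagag
Cela1 (chr15:100687941-100688140, minus strand): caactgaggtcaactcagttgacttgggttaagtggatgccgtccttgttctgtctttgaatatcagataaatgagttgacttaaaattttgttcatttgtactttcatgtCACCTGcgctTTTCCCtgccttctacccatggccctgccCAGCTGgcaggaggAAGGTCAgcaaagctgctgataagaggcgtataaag
Prss2 (chr6:41521556-41521755, plus strand): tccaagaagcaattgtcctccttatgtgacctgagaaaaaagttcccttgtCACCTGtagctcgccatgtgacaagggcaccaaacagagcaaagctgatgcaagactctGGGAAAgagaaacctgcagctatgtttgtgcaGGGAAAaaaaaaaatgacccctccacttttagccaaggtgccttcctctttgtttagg
Cel (chr2:28563424-28563623, minus strand): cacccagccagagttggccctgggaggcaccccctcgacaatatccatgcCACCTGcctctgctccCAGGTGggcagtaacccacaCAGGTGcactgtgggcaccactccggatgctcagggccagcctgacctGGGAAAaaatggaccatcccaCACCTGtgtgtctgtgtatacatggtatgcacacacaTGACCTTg
Windows of 250 bases before the start were at hand for 9 of the 10 genes, all but Clps. An E-box and a TC-box on the same strand with 3 to 9 bases between them were found in Ctrb1 (from base -205) and Cela1 (from base -109), in both with 4 bases between, and in 0.158% of the 32851 RefSeq windows. CACCTG was found in 5 of the 9 genes (17.2% of all windows), CAGCTG in 2 (13% of all windows), TTTCCC in 6 (21.9% of all windows) and AAGGTCA in 2 (4.08% of all windows), on either strand. Prss2 and Cel hold both kinds of box but no pair by this rule. The rule fixed the strand, the order of the boxes and the gap, and pairs placed otherwise were not sought. Of the genes not shown, Cela2a holds 2 motifs, Cpa1 and Cpb1 hold 1 each, and Pnlip and Rnase1 hold 0. A link between these motifs and the reads in the sorted samples was not tested. These are matches of letters in a window and not tested sites.

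The serine proteases were led by Ctrb1, which encodes chymotrypsinogen (chromosome 8, 111686519 to 111691010, minus strand, 7 exons, build mm10). Ctrb1 had 8180, 31102 and 25172 counts in KC pancreas of 4 weeks, 327, 203 and 352 counts at 13 weeks, and 0 counts in each of the 6 KC pancreas libraries of 9, 20 and 30 weeks. WT pancreas held 13825 counts at 9 weeks and 5240 at 30 weeks. Of the KC blood libraries, Sample_42B8 and Sample_43B8 (4 weeks) had 27.5 and 28.0 CPM, Sample_131B8 (13 weeks) had 27.6 CPM or 271 counts, and the other 6 had 0. WT blood held 27.8 CPM or 464 counts. Ctrb1 thus fell into 3 ranges with no overlap: 5 pancreas libraries at 5240 counts or more, 7 libraries of both tissues between 203 and 464, and 12 libraries at 0, which are the libraries of set 2. A count of 0 allows up to 3 counts, which is 0.183 to 0.472 CPM in the libraries of set 2.

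The elastases Cela1 (chromosome 15, 100674421 to 100687921, minus strand) and Cela2a (chromosome 4, 141814962 to 141826160, minus strand), which cut proteins after small residues, stood in the same 3 ranges. Cela1 had 734, 1697 and 800 counts in KC pancreas of 4 weeks, 35, 24 and 26 at 13 weeks, and 0 at 9, 20 and 30 weeks. In WT pancreas Cela1 had 1019 counts at 9 weeks and 314 at 30 weeks. Blood held 28 to 33 Cela1 counts in the 3 KC libraries of set 1, 0 to 1 in the 6 KC libraries of set 2, and 56 in WT blood. Cela2a had 342, 1666 and 1408 counts in KC pancreas of 4 weeks, 17, 58 and 26 at 13 weeks, 257 and 419 in WT pancreas, 22 to 36 in the KC blood libraries of set 1, 35 in WT blood, and 0 in set 2. Cela2a overlaps Casp9 and Ctrc in the annotation. Reads there may have been given to 1 of these genes or tallied as ambiguous and so to none, since strand use is not stated. Ctrb1 overlaps Mir7076, Cel overlaps Gm13381 and Clps overlaps Mir6969.

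Prss2, anionic trypsinogen, departed from the other 9 genes. It had 534, 2631 and 926 counts in KC pancreas of 4 weeks and 345 and 173 in WT pancreas, but 3219 counts in 1 library of 13 weeks, Sample_132P8, against 40 and 37 in the other two of that age. With 416 CPM, Sample_132P8 held more Prss2 than any other library, and the highest of the 5 libraries with high enzyme levels had 258 CPM. The neighbouring trypsinogens did not stand out in Sample_132P8: Try4 had 2 counts there, Try5 had 6 and Try10 had 3. Prss2 was also detected in the blood library that shares the title number, Sample_132B8, with 21 counts, while the other 5 KC blood libraries of set 2 had 0 to 1. Prss2 lies on chromosome 6 (41521787 to 41525079, plus strand) inside the T cell receptor beta locus, 8122 bases before Trbd1 and 13139 before Trbc1, with 34 of the 53 annotated beta segments before it and 19 after. None of those 53 segments has a row in the count files. Its transcript is 90.7% identical to that of Try4 over the aligned bases, with a longest shared run of 70 bases, so that reads of trypsinogens may be split between copies. The other enzyme families were at most 70.7% identical between the transcripts compared.

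The carboxypeptidases, which remove single residues from the ends of peptides, were Cpa1 (chromosome 6, 30639218 to 30645363, plus strand) and Cpb1 (chromosome 3, 20248264 to 20275733, minus strand). Cpa1 had 1382, 6271 and 1713 counts in KC pancreas of 4 weeks, 56, 35 and 57 at 13 weeks and 0 at the other ages. WT pancreas had 2538 and 1343 Cpa1 counts, the KC blood libraries of set 1 had 41 to 58, those of set 2 had 0, and WT blood had 82. Cpb1 had 3670, 17791 and 3042 counts in KC pancreas of 4 weeks and 96 to 161 at 13 weeks. In the KC pancreas libraries of 9, 20 and 30 weeks Cpb1 had 0 to 2 counts, apart from Sample_303P8 (30 weeks) with 375 counts or 59 CPM. The other 9 enzyme genes had 0 counts in Sample_303P8, so its summed enzyme level was Cpb1 alone. Cpb1 had 8802 and 1116 counts in WT pancreas, 103 to 142 in the KC blood libraries of set 1, 0 to 2 in those of set 2, and 199 in WT blood.

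The genes of fat digestion were Pnlip, the triglyceride lipase (chromosome 19, 58652498 to 58681788, plus strand), Cel, the bile salt-activated lipase (chromosome 2, 28555795 to 28563403, minus strand), and Clps, the colipase that anchors lipase to fat droplets (chromosome 17, 28558149 to 28560766, minus strand). Pnlip had 551, 4787 and 1203 counts in KC pancreas of 4 weeks, 43, 36 and 48 at 13 weeks, 2247 and 516 in WT pancreas, 34 to 49 in the KC blood libraries of set 1 and 109 in WT blood. Cel had 895, 6456 and 2585 counts in KC pancreas of 4 weeks, 52, 22 and 46 at 13 weeks, 2529 and 1470 in WT pancreas, 27 to 37 in the KC blood libraries of set 1 and 39 in WT blood. Clps had 812, 1178 and 3920 counts in KC pancreas of 4 weeks, and was the gene for which Sample_43P8 rather than Sample_42P8 was highest. At 13 weeks Clps had 29, 14 and 41 counts, WT pancreas had 1375 and 314, the KC blood libraries of set 1 had 23 to 27, and WT blood had 47. All 3 genes were at 0 in the 12 libraries of set 2. Rnase1, the pancreatic ribonuclease (chromosome 14, 51144998 to 51146785, minus strand), had 2131, 7379 and 4948 counts in KC pancreas of 4 weeks, 86, 75 and 82 at 13 weeks, 5888 and 2969 in WT pancreas, 79 to 87 in the KC blood libraries of set 1, 166 in WT blood and 0 in set 2.

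**Figure D1:**
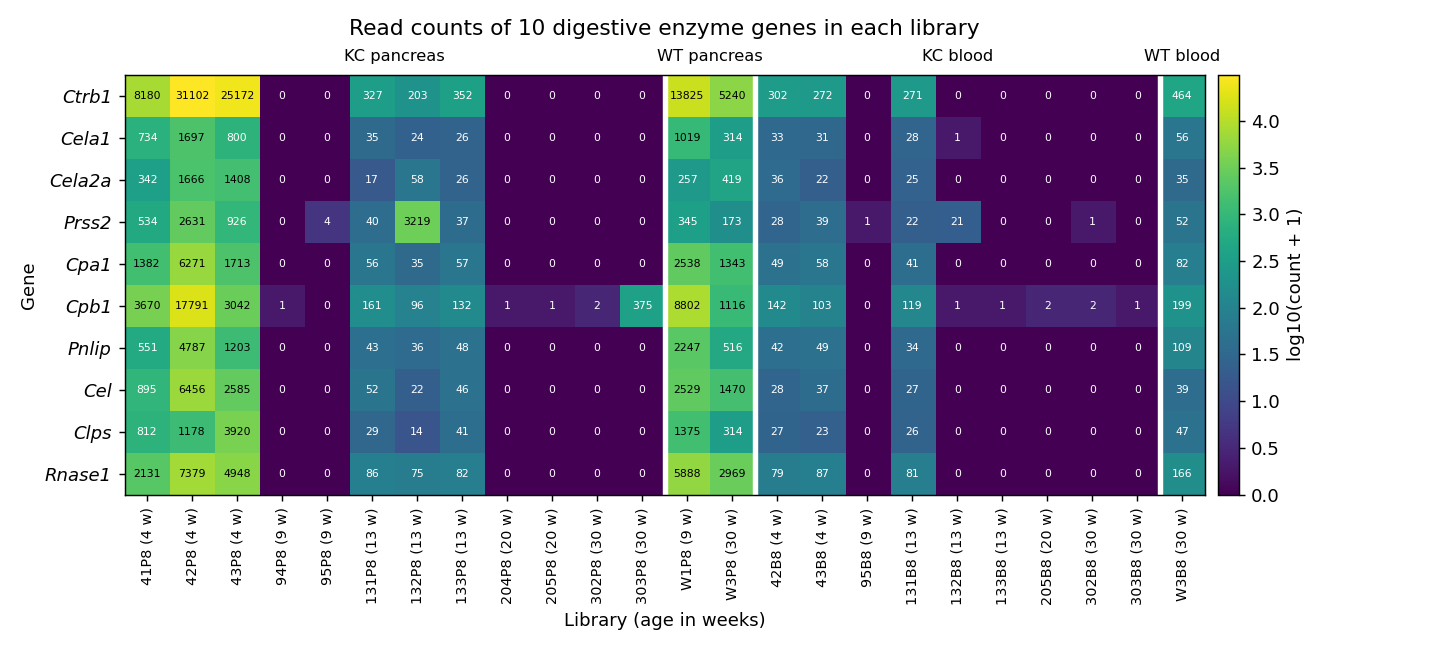
Read counts of the 10 genes (rows) in each of the 24 libraries (columns, grouped by genotype and tissue and ordered by age in weeks), coloured by log10(count + 1) with the count printed in each cell. The counts fall into 3 ranges, and Prss2 in Sample_132P8 (3219) and in Sample_132B8 (21) and Cpb1 in Sample_303P8 (375) lie above the 9 other genes of their library.

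Summed over the 10 genes, the enzymes reached 1566, 7942 and 4816 CPM in KC pancreas of 4 weeks, and 3687 and 1107 CPM in WT pancreas of 9 and 30 weeks. At 13 weeks KC pancreas held 93.5, 489 and 92.0 CPM, and Prss2 made up 85.1% of the enzyme counts in the library with 489. KC pancreas held 0.131 and 0.366 CPM at 9 weeks, 0.136 and 0.103 at 20 weeks, and 0.236 and 59.0 at 30 weeks. KC blood held 69.6 and 74.2 CPM at 4 weeks, 0.0896 at 9 weeks, 68.6, 1.40 and 0.116 at 13 weeks, 0.237 at 20 weeks and 0.397 and 0.139 at 30 weeks, and WT blood held 74.7 CPM. The 13-week blood libraries show the split within 1 age, with Sample_131B8 of set 1 at 68.6 CPM and both libraries of set 2 at most at 1.40. All 10 genes were higher in each of the 3 KC blood libraries of set 1 than in any of the 6 of set 2, as were 1.22% of the 12785 genes with at least 10 counts.

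**Figure D2:**
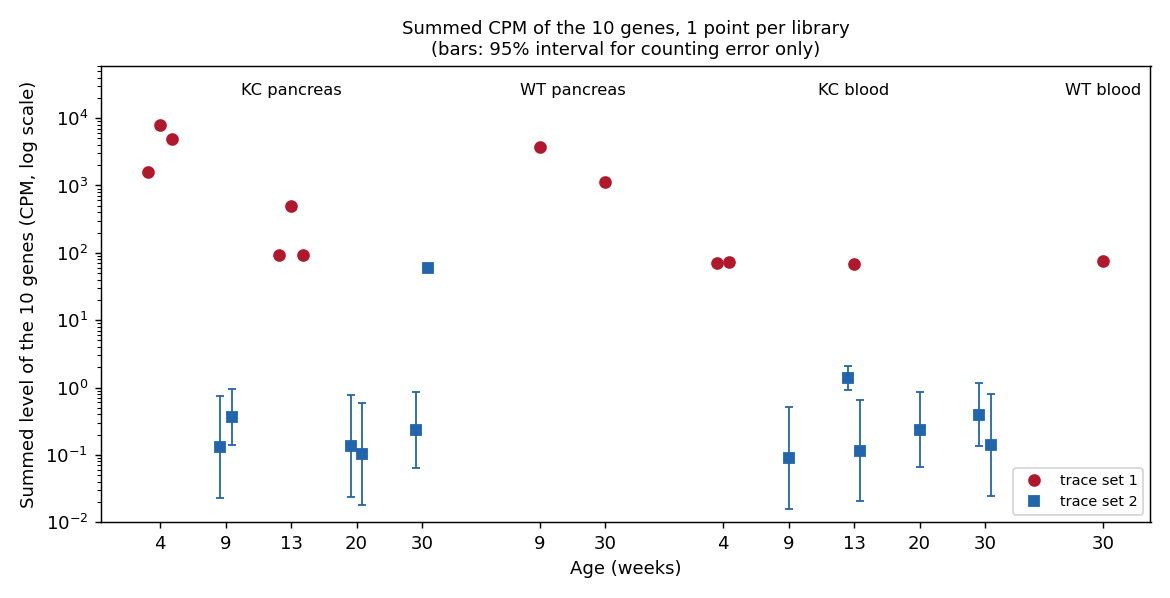
Summed CPM of the 10 genes on a log axis against age in weeks, 1 point per library, with 95% intervals that cover counting error only and circles for trace set 1 and squares for trace set 2. The libraries of set 1 lie at 68.6 CPM or above in both tissues, and those of set 2 lie at 1.40 CPM or below except 1 KC pancreas library of 30 weeks at 59.0.

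The order of the enzymes was compared per kilobase of transcript in the 5 libraries with the highest levels, KC pancreas of 4 weeks and WT pancreas. Ctrb1 took 52.1% ± 5.37 (SD, n = 5) of the summed level per kilobase and ranked 1 in 5 of 5 libraries. Rnase1 came next with 15.1% ± 5.63 and ranked 2 or 3 in each. Clps took 6.96% ± 4.14, Cpb1 6.55% ± 3.53, Cpa1 4.93% ± 1.65, Cel 3.81% ± 1.33 and Pnlip 3.17% ± 1.40 of the summed level per kilobase. Prss2 took 2.77% ± 1.45, Cela1 2.52% ± 0.843 and Cela2a 2.14% ± 0.924. Ctrb1 was above Rnase1 in 5 of 5 libraries and Rnase1 above Clps in 4 of 5. Each pair of neighbours from Clps down kept its order in 2 to 4 of 5 libraries. Whether neighbours differed beyond their spread was not tested. Counts not divided by length placed Cpb1, which has the longest transcript of the 10 at 2718 bases, at place 2 with 15.7% of the counts, against place 4 per kilobase. By class, per kilobase, the serine proteases made up 52.4% to 67.0% of the summed level in these 5 libraries, the carboxypeptidases 4.63% to 15.5%, the genes of fat digestion 12.2% to 17.8% and the ribonuclease 10.5% to 23.6%.

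By class, the make-up of the enzyme reads in the blood libraries of set 1, which held far fewer of them, was close to that of the 5 high libraries. In the 4 blood libraries of set 1, the serine proteases made up 59.4% to 64.0% of the summed level per kilobase, the carboxypeptidases 11% to 12%, the genes of fat digestion 12.5% to 14.9% and the ribonuclease 11.5% to 14.7%. Each of these ranges lies inside that of the 5 high libraries. Among single genes, Ctrb1 ranked 1 and Rnase1 ranked 2 in all 4 blood libraries, but lower places differed. Cel ranked 10 in all 4, against 4 to 8 in the high libraries, and Prss2 ranked 3 to 6, against 5 to 10. Cela1 took 4.11% to 4.45% of the summed level per kilobase, against 1.52% to 3.79% in the high libraries. The distance of a library's enzyme profile from the pooled profile of the 5 high libraries, taken as the sum of the absolute differences between shares of counts divided by 2, was 5.44% to 10.4% in the 4 blood libraries of set 1. It was 6.34% and 5.89% in Sample_131P8 and Sample_133P8 and 82.8% in Sample_132P8, which came to 13.0% without Prss2. The 5 high libraries themselves lay 5.12% to 18.8% from the pool they form.

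**Figure D3:**
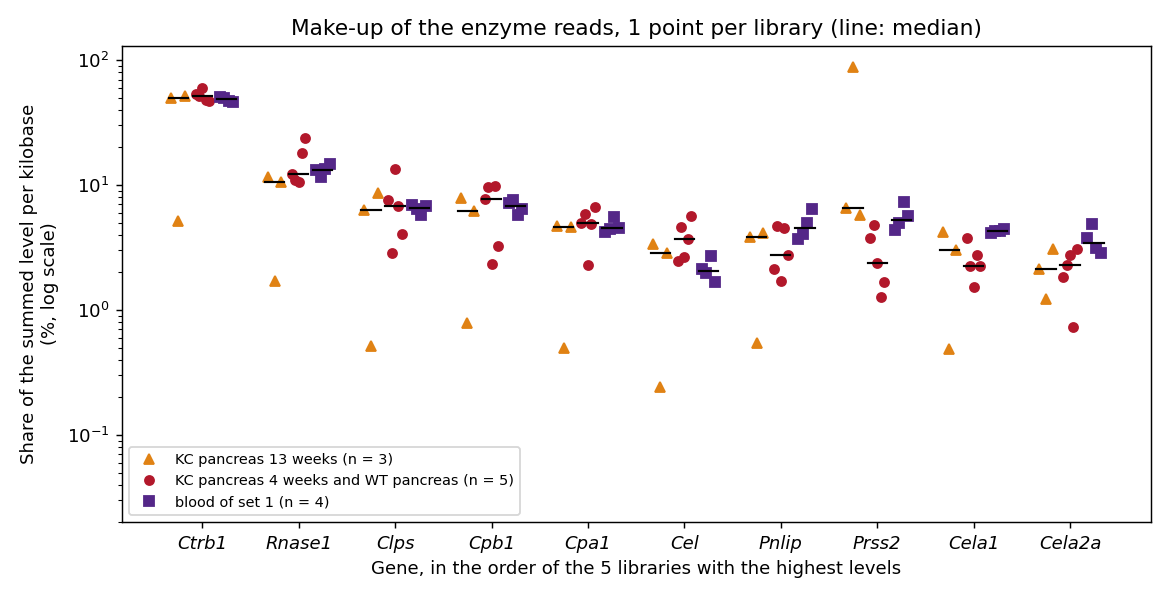
Share of each gene in the summed level per kilobase (%, log axis) with 1 point per library and a line at the median, for KC pancreas of 13 weeks, the 5 libraries of KC pancreas of 4 weeks and WT pancreas, and the 4 blood libraries of set 1. Ctrb1 leads in all libraries but Sample_132P8, where Prss2 takes 88.8%. The range of the blood points overlaps that of the 5 high libraries for each gene but Cela1, which is higher in blood.

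The 7 low libraries of set 1 also held similar numbers of enzyme reads. Leaving out Sample_132P8, the highest of the 6 others had 1.71 times the lowest for Ctrb1, 1.93 times for Cel and Cpb1, and at most 3.21 times (Pnlip). Across the 5 high libraries the same ratio was 5.94 for Ctrb1, 7.21 for Cel, 15.9 for Cpb1 and 9.28 for Pnlip. As a percent of a gene's summed count in the 5 high libraries, the count in a low library of set 1 had a median of 0.422% over the 70 values of 10 genes in 7 libraries. It ran from 0.158% to 1.23% in 68 of them, and the other two, both in Sample_132P8, were 69.8% for Prss2 and 1.42% for Cela2a. Levels of the traces used to form the sets had a median of 0.205% of 1 source library's CPM, with 10% of the values below 0.0556% and 10% above 1.01%, a measure taken against 1 library rather than 5. Whether the enzyme reads in the low libraries came with the cells of those samples or from other libraries was not tested.

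**Figure D4:**
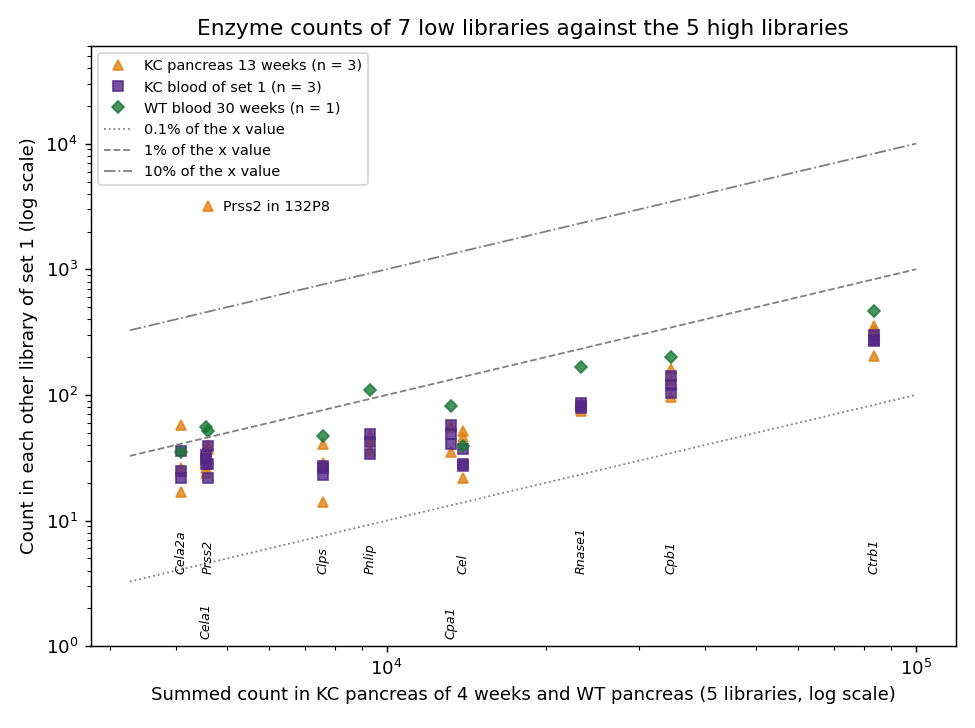
Count of each gene in each of the 7 low libraries of set 1 (log axis) against its summed count in the 5 libraries of KC pancreas of 4 weeks and WT pancreas (log axis), with lines at 0.1%, 1% and 10% of the x value. Points of both tissues follow the same band near 0.422%, and Prss2 in Sample_132P8 lies at 69.8%.

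The tissue comparison asks how sorted CD8 cells of KC pancreas differed from those of KC blood. All 10 enzyme genes had higher fitted levels in pancreas with age as a factor (edgeR, 21 libraries), with log2 fold changes of 2.31 to 4.69 and a median of 2.78, against a median of -0.01 over the 8361 genes tested. None of the 10 was called at an adjusted p under 0.05, while 0.12% of all genes were called higher. DESeq2 called 1 (Cpb1), with 2.08% of the genes it adjusted called higher. The fold changes were 4.69 ± 1.43 for Prss2, 3.49 ± 1.16 for Cpb1, 3.12 ± 1.33 for Cel and 2.95 ± 1.64 for Ctrb1 (log2 ± SE). All 10 genes passed the filter on low counts, mainly through the 6 KC pancreas and 3 KC blood libraries of set 1. Nothing is therefore read from the numbers called. Without any 1 of the 6 KC pancreas libraries of 4 and 13 weeks, Prss2 and Cpb1 alone passed the filter. With set as a term the median was 2.14, and in set 1 alone it was 2.57, with 10 of 10 positive in each. In set 2 alone, and without the libraries of 4 weeks, none of the 10 passed the filter. Without Sample_131B8, 4 were called higher, as were 19 of all 8689 genes tested.

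Where libraries of both tissues share a title number, the pair of values followed the sets. The 2 KC pairs of 4 weeks are both of set 1. In Sample_42P8 and Sample_42B8 the summed level was 7942 CPM in pancreas and 69.6 CPM in blood. In Sample_43P8 and Sample_43B8 it was 4816 CPM in pancreas and 74.2 CPM in blood. In the 13-week pair of Sample_131P8 and Sample_131B8, also both of set 1, it was 93.5 CPM in pancreas and 68.6 CPM in blood. In the other two pairs of 13 weeks, of which the pancreas library is of set 1 and the blood library of set 2, it was 489 and 92.0 CPM in pancreas and 1.40 and 0.116 CPM in blood. In the pairs of 9, 20 and 30 weeks, all of set 2, pancreas held 0.103 to 0.366 CPM and blood 0.0896 to 0.397 CPM, apart from 59.0 CPM in Sample_303P8. The WT pair of 30 weeks, of set 1, held 1107 CPM in pancreas and 74.7 CPM in blood, a ratio of 14.8 (95% interval 14 to 15.7 for counting error only), with 1 library per tissue and no test. Among the genes this ratio ran from 4.44 for Prss2 (13.8 CPM in pancreas, 3.11 CPM in blood) to 50.3 for Cel (117 CPM in pancreas, 2.33 CPM in blood).

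The age comparison follows the study's time course in KC pancreas. The fitted slopes of all 10 genes were negative, from -7.16 to -1.76 with a median of -6.17 log2 per 10 weeks, against -0.06 over the 10552 genes tested. Of the 10, 8 were called lower with age, while 0.578% of all genes were called lower. Nothing is read from that count, since the levels across ages were in view when the genes were chosen. Cpb1 (-1.76 ± 0.92) and Prss2 (-5.17 ± 3.29) were not called, and they are the genes with a single high library at a later age. Ctrb1 had a slope of -7.16 ± 1.43, Cel -6.68 ± 1.14, Clps -6.47 ± 1.17 and Rnase1 -6.47 ± 1.13 log2 per 10 weeks. DESeq2 also called 8 lower, with 363 of the 7633 genes it adjusted called lower. With RLE scaling 6 were called, and 0.313% of all genes were called lower. Without Sample_42P8, 5 were called, with 48 of all 10307 genes tested called lower. Without Sample_43P8, 4 were called, with 20 of 10307 genes called lower. The levels did not decline step by step. In all 3 libraries of 4 weeks, 9 of 10 genes (all but Prss2) were higher than in any later KC pancreas library. So were 0.973% of the 12643 genes with at least 10 counts. But the summed level was 0.131 and 0.366 CPM at 9 weeks, in set 2, and 92.0 to 489 CPM at 13 weeks, in set 1. The 4-week libraries also lay above those of 13 weeks, which are in the same set, for the same 9 genes, as did 15% of 11186 genes. With set as a term 0 of the 10 genes were called, the median slope was -4.15 and Cpb1 had a positive slope (3.20 ± 1.58). In set 1 alone, which holds 4 and 13 weeks, 0 were called, with a median of -5.31 and a positive slope for Prss2 (1.49). Across all genes edgeR called 0 in either of these fits, with 825 and 1246 at an unadjusted p under 0.05. In set 2 alone none of the 10 passed the filter. Age and set cannot be told apart in the 12 libraries as a whole. Some fibroblast genes were lower with age in the same libraries. The 8 listed genes, all of them detected in the series, summed to 108, 6.67 and 546 CPM at 4 weeks, 1.29 to 14.8 CPM at 13 weeks and 0 to 7.495 CPM at the other ages. Of 6 tested, 3 were called lower with age (Bgn, a matrix proteoglycan, Col3a1, a collagen chain, and Pdgfra, a growth factor receptor), with a median slope of -5.30 log2 per 10 weeks. The library with the most enzyme reads, Sample_42P8, had the lowest fibroblast sum of the 3 at 4 weeks, and the part of fibroblast RNA in the enzyme slopes was not tested.

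In KC blood, which holds no acinar cells, the slopes were also negative for all 10 genes, from -4.51 to -2.52 with a median of -3.30 log2 per 10 weeks, against -0.18 over 12265 genes. None was called by edgeR or DESeq2, and 0.294% of all genes were called lower by edgeR. Without Sample_131B8, 4 were called lower, as were 75 of all 12208 genes tested. With set as a term the median slope was 0.14, and 8 of the 10 slopes were positive, such as 0.24 ± 1.05 for Ctrb1. The difference of the slopes, pancreas minus blood, was -3.09 ± 3.50 for Ctrb1 and -3.63 ± 2.56 for Cel and had a median of -2.84, with 9 of 10 negative and Cpb1 at 0.95. Without Sample_131B8 the median turned to 0.41, with 6 of 10 positive. None of the 10 differences was called by edgeR or DESeq2, and 0.012% of the 8361 genes tested were called lower.

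**Figure D5:**
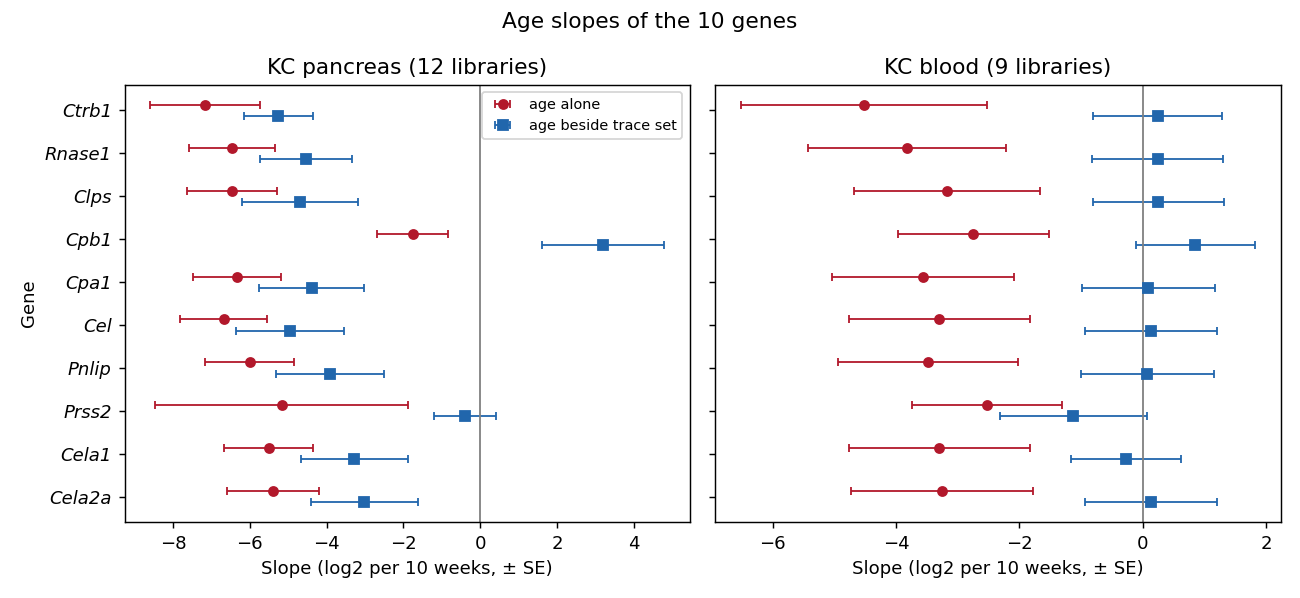
Slopes of the 10 genes in log2 per 10 weeks (points, bars are ± SE) in KC pancreas (12 libraries) and KC blood (9 libraries), from age alone (circles) and from age beside trace set (squares). In blood the circles lie from -4.51 to -2.52 and 8 of 10 squares lie above 0, and in pancreas 9 of 10 squares stay below 0.

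The genotype comparison sets KC pancreas of 9 and 30 weeks against WT pancreas of the same ages. All 10 genes had lower counts in KC pancreas, and all 10 were called by edgeR and by DESeq2, while edgeR called 0.194% of the 10829 genes lower. Nothing is read from that count, since the levels of these groups were in view when the genes were chosen and 8 of the 10 were at 0 in KC. The WT libraries were above all 4 KC libraries for all 10 genes, as they were for 5.68% of 11862 genes. Ctrb1 had 0 counts in the 4 KC libraries, against 827 CPM in the WT libraries pooled, which is at least 9195-fold lower when a floor of 3 counts over the KC libraries is used. On the same floor, Rnase1 was at least 4272-fold lower, Cel at least 1929-fold, Cpa1 at least 1872-fold, Pnlip at least 1333-fold, Clps at least 815-fold, Cela1 at least 643-fold and Cela2a at least 326-fold. Cpb1 had 11.3 CPM in KC, nearly all from Sample_303P8, and 430 CPM in WT, a ratio of 38.0, and Prss2 had 0.12 CPM in KC and 22.5 CPM in WT, a ratio of 187. The fitted log2 fold changes had a median of -12.31, or -10.02 with the 8 genes at 0 set to their bounds, against 0.37 over all genes tested. These KC libraries are all of set 2 and the WT libraries all of set 1, so genotype and set cannot be told apart. Within set 1, the mean of KC pancreas at 4 and 13 weeks was set against the mean of WT at 9 and 30 weeks, so age differs too. That KC mean joins unlike summed levels, 1566 to 7942 CPM at 4 weeks and 92.0 to 489 CPM at 13 weeks. WT held 3687 CPM at 9 weeks and 1107 CPM at 30 weeks. This contrast gave a median log2 fold change of -1.01, with 8 genes negative, Cela2a at 0.14 ± 1.45 and Prss2 at 3.28 ± 1.83, and edgeR called 0 of the 10. For KC against WT at 9 and 30 weeks, leaving out Sample_W1P8 left 30 weeks alone, with a median log2 fold change of -11.25. Leaving out Sample_W3P8 left 9 weeks alone, with a median of -13.75. Leaving out Sample_302P8 left 6 of the 10 called, with 10 of all 10703 genes tested called lower. Without Sample_303P8 it was 6, with 8 of 10725 genes, and without Sample_94P8 it was 6, with 8 of 10777. Without Sample_95P8 it was 4, with 5 of 10399 genes. Nothing is read from these counts.

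In blood of 30 weeks, the summed level of the 10 genes was 0.139 and 0.397 CPM in KC and 74.7 CPM in WT. Ctrb1 had 0 counts in both KC libraries, against 464 in WT blood, which is at least 136-fold lower on a floor of 3 counts over the KC libraries. None of the 10 was called by edgeR or by DESeq2, and 0% of the 12496 genes were called lower in edgeR, a count from which nothing is read. The median fitted log2 fold change was -7.81, or -4.80 with 8 genes at their bounds. The comparison rests on 1 WT library, and it too sets libraries of set 2 against set 1.

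Many other genes of acinar cells ran like the 10 across libraries, and some did not. Among the 10914 genes with a mean of at least 1 CPM, the 10 whose log2(CPM + 1) ran most like the mean of the enzymes all belong to the acinar lists, as described by Pearson's r over the 24 libraries and over the 12 of set 1. They were led by 2210010C04Rik, a trypsin-like gene (0.991 over 24 libraries, 0.979 in set 1), and Reg2, a secreted regenerating protein (0.989 over 24, 0.984 in set 1), followed by Amy2b, an amylase, Pla2g1b, a phospholipase, Pnliprp1, a lipase-related protein, Try5, a trypsinogen, Ctrl, a chymotrypsin-like protease, Sycn, a zymogen granule protein, Reg1 and Cela3b. The libraries share their depth and their set, so these are descriptions. The first gene outside the lists was Tmem176a, at rank 14 (0.846). The 22 other acinar enzyme genes summed to 439 to 3783 CPM in the 5 high libraries, 27.8 to 31.7 CPM in KC pancreas of 13 weeks, 23.2 to 26.3 CPM in the 4 blood libraries of set 1, 0 to 11.5 CPM in pancreas of set 2 and 0 to 0.359 CPM in blood of set 2. In the age comparison 8 of the 11 tested genes of this list were called lower in KC pancreas and 0 higher, with a median slope of -5.88. Between KC and WT pancreas 7 of 14 were called lower and 0 higher, with a median log2 fold change of -9.79, and between KC pancreas and KC blood 0 of 4 were called, with a median of 2.51. Of the list of granule and other acinar proteins, 5 of 11 tested genes were called lower with age in KC pancreas, among them Sycn and Reg2, and 3 of 13 were lower in KC than in WT pancreas (Reg1, Reg2 and Sycn). Dmbt1, a mucosal glycoprotein, was the 1 of 3 called between the tissues, higher in KC pancreas, and it was detected in all 24 libraries. Of the 11 granule and other genes, 2 had positive age slopes that were not called: Pdia2, a disulfide isomerase, with 2.01 ± 0.69 and 257 counts in Sample_303P8, and Tff2, a trefoil peptide, with 1.36 ± 0.77 log2 per 10 weeks and 176 counts in Sample_302P8. Erp27, a protein of the endoplasmic reticulum, was highest in a blood library of set 2, Sample_95B8, with 57 counts.

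Single enzyme or secretory genes that stood alone were also seen outside the 10. Pnliprp2 had 112 counts in Sample_205P8, where Cpb1 with 1 count was the only other enzyme gene of the 10 and of the wider list detected. Ctrl had 24 counts in Sample_95P8, beside 4 of Prss2, and Klk1, a kallikrein, had 26 counts in Sample_302P8. Sample_131P8 held 9414 counts of Dmbt1, 819 of Reg1 and 287 of Reg3b, with 327 of Ctrb1. The transcription factors that drive acinar genes were near 0: Ptf1a, Rbpjl and Gata4 had 0 counts in all 24 libraries, Nr5a2 had 51 counts in 4 libraries, of which 48 (5.06 CPM) were in Sample_43P8, 1 of the 5 high libraries, and Bhlha15, which plasma cells also express, had 125 counts, of which 111 were in Sample_95B8. The amylase genes Amy2a2, Amy2a3, Amy2a4 and Amy2a5, which are near-identical copies, were at 0 in all libraries.

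Markers of other pancreatic cells were lower than the enzymes in the 5 high libraries. Duct genes summed to 0.244 to 19.3 CPM there, islet genes to 0 to 18.2 CPM and fibroblast genes to 1.76 to 546 CPM with a median of 8.55 CPM, against 1107 to 7942 CPM of the 10 enzymes. In KC pancreas of 13 weeks duct genes summed to 0.434 to 54.8 CPM, highest in Sample_131P8. Platelet genes, which mark blood, summed to 1.89 to 94.2 CPM in the pancreas libraries and 39.7 to 379 CPM in the blood libraries.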

How the data were processed

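RNA of sorted CD8 T cells was measured in 24 libraries. The deposited files hold whole-number read counts per gene symbol, as the authors counted them and without normalisation. The submitters' processing notes name TopHat, SAMtools, HTSeq, DESeq and build mm10, with no version or setting, and the strand use is not given in the sources used here. The 5 tally rows of reads given to no gene were left out of totals. The 10 genes, the other lists and most alternatives were chosen with earlier results of these data known. Named beside the 10 were up to 3 genes per list by mean CPM and the 10 nearest genes by correlation, and single genes that stood alone were named after their values were seen.

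CPM were computed over all genes, and levels per kilobase used the principal transcript of GENCODE annotation of the same build. With edgeR 4.0.16 (R 4.3.3), genes were filtered by filterByExpr at 10 counts, scaled by TMM and tested by robust two-sided quasi-likelihood F-tests. The model was fitted across all genes with Benjamini-Hochberg adjustment and a threshold of 0.05, and was also run on simulated counts. Those counts varied less between libraries than these data and held no genes at 0 in a whole set. That run therefore says nothing on the calls given here. Pancreas against blood used 21 KC libraries with age as a factor, trends used age as a number, and KC against WT used 14 pancreas or 10 blood libraries with genotype and age as 1 factor. SE is the absolute log2 value over the square root of F. Alternatives were DESeq2 1.42.0, RLE scaling, no filter, leaving out libraries, trace sets and title numbers as a block. A trace gene reached 100 CPM in 1 library and no more than 5% of that level in the others. Nothing states that libraries of a group come from separate animals, so SEs and calls measure the spread between libraries. The p-values planned for KC against WT are not printed, because the levels of these groups were among those that chose the genes. Intervals and floors cover counting error only.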

Additional observations from a re-analysis of the deposited data

How the results depend on the processing

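Of the 1038 values of single genes under the alternatives, 934 kept their direction and their side of the threshold, 74 fell short of it, 11 passed it and 19 changed sign. RLE scaling and no filter on low counts left the counts of called genes within 1.5 times in all 6 comparisons, as did DESeq2 except between tissues, where it called 1 of the 10 higher in pancreas. Leaving out 1 library at a time gave 0 to 4 called higher in KC pancreas against KC blood, 4 to 8 lower with age in KC pancreas, 0 to 4 lower with age in KC blood, 0 for the difference of slopes, 3 to 10 lower in KC than in WT pancreas and 0 in KC against WT blood. For the first and for the difference of slopes, 2 of the 10 genes (Cpb1 and Prss2) passed the filter in the 6 fits without a KC pancreas library of 4 or 13 weeks, so the other 8 were not tested there. An arm left with 1 library was assumed to vary like the others, and no value could be had without WT blood.

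The trace sets changed most. For the age trend in KC pancreas, 0 of the 10 were called with set beside age, in set 1 alone or without the libraries of 4 weeks, and Cpb1 turned to 3.20 with set beside age and to 0.66 without 4 weeks, and Prss2 to 1.49 in set 1 alone. In KC blood with set beside age, the slopes turned positive for Ctrb1 (0.24), Cela2a (0.14), Cpa1 (0.0911), Cpb1 (0.86), Pnlip (0.0744), Cel (0.14), Clps (0.25) and Rnase1 (0.25). Against WT pancreas, KC of 4 and 13 weeks in set 1 gave 0 called, with Cela2a at 0.14 and Prss2 at 3.28. Over the fits with 1 library left out, the difference of slopes ran from -3.55 to 4.48 for Ctrb1, from -2.58 to 0.25 for Cela2a, from -3.28 to 0.77 for Cpa1, from -2.999 to 0.56 for Pnlip and from -3.27 to 1.82 for Rnase1, positive without Sample_131B8, and from -2.33 to 1.54 for Cpb1, negative without Sample_303P8. The cause was not tested. By raw counts 2 of the 10 genes, and by the length of all annotated exons 6, kept their place in the order per kilobase.

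The labels do not say that a title number marks 1 mouse. For 7 KC pairs, from the ages that have 2 pairs or more, the pancreas and blood libraries' differences from their own group's mean had correlations of -0.06 to 0.01, and 0 of the 7 were over 0.1. At an age with 2 pairs, both pairs give the same value by construction, so the 7 values are not 7 separate checks. With the title number as a replicate block in the 9 KC pairs, 2 of the 10 genes passed the filter and 0 were called, as with age as a factor in the same libraries, an alternative chosen after the data were seen like the exon lengths and the WT pair without Rn45s and Lars2 (ratio 15.0). In the 12 libraries of set 2, a count of 0 allows up to 0.183 to 0.472 CPM.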
